A study of Mus musculus with 14 samples.

Results

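The genes described here encode enzymes that methylate lysine 36 of histone H3 (H3K36), or that have been described as doing so: Setd2, Nsd1, Nsd2, Nsd3, Ash1l, Setd5, Setmar, Smyd2 and Setd3. These 9 genes were chosen by name, for their protein products, and are 9 of the 52550 genes in the deposited table. All 9 were found in the table by their Ensembl identifier on GRCm38, and all 9 passed the filter on low counts. The comparison asked how the RNA of each gene stood in each tumor, and whether RNA of any other member was higher in tumors in which Setd2 had been targeted.

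Methylation of H3K36 marks the bodies of transcribed genes. The NSD enzymes (Nsd1, Nsd2 and Nsd3) and Ash1l place the mono- and dimethyl forms, and Setd2, which travels with elongating RNA polymerase II, is the main enzyme that adds the trimethyl form. Trimethylated H3K36 is read by proteins that act in DNA methylation, splicing, DNA repair and the silencing of internal start sites, and SETD2 is a tumor suppressor gene in lung adenocarcinoma. The remaining members are less settled. Smyd2 methylates many proteins besides histones, Setd3 is known as the histidine methyltransferase of actin, and a histone-methylating activity of Setd5 has been disputed.

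RNA was measured in 14 mouse lung adenocarcinomas, of which 6 were labelled KPY-Ctrl and 8 KPY-Setd2KO. All tumors arose in mice of mixed B6J/129S4vJae background with the alleles Trp53 flox/flox and Rosa26 LSL-YFP, and the age of the mice at collection is not given in the sources used here. A lentivirus delivered to the airways carried Cre, Cas9 and 1 guide RNA, so both genotypes expressed Cre and Cas9 and lost p53 in the infected cells. The guide was directed at beta-galactosidase, as a control, in KPY-Ctrl and at Setd2 in KPY-Setd2KO. Each tumor was dissected and, per the methods, sorted for live cells with the YFP reporter. The labels instead describe RNA taken from cell lines, with other RNA and library kits, and this conflict was not resolved. The study gives fewer mice than tumors, and the mouse of each tumor is not given, so the p-values treat as independent some tumors that may share a mouse.

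The KPY-Ctrl tumors had total counts of 27866266 to 51828846, and the KPY-Setd2KO tumors 20072236 to 40604404. Lung epithelial markers were present in all 14 tumors (Sftpc, a surfactant protein of alveolar cells, was at 3039 CPM or more, where CPM is the gene's count scaled to a common library size by TMM). RNA of 12 leukocyte markers was summarised as a score, the mean of their log2 CPM, and varied far more between tumors of one genotype than between genotypes. It ran between 3.73 and 8.55 in KPY-Ctrl (median 6.41) and, in KPY-Setd2KO, between 3.57 and 8.80 (median 7.02). Scores from 8.07 to 8.80 were measured in KPY-Ctrl replicates 1, 2 and 6 and in KPY-Setd2KO replicates 1 to 4, and scores from 3.57 to 5.66 in the others. No leukocyte marker was at 0 in any tumor, with Ptprc at 5.32 CPM or more. A score of 10 epithelial markers spanned 8.38 to 10.2 in KPY-Ctrl and 7.46 to 10.2 in KPY-Setd2KO. Endothelial and fibroblast scores were lower, at -1.75 to 2.66 and -1.53 to 2.70, with the markers Cldn5 and Lum at 0 in the lowest tumor. Their medians were higher in KPY-Setd2KO, at 0.70 against -0.10 for endothelial and 0.52 against -0.12 for fibroblast markers, as was that of erythroid markers, at 4.63 against 3.59, and their part in the genotype differences was not tested. In RNA from whole samples, fewer cells of a type and less RNA per cell cannot be told apart.

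The guide directed at Setd2 had its target in an early coding exon. The site is shown because it limits what the RNA level can say about the label. It lies at chr9:110548531-110548550 on the minus strand of GRCm38, in exon 3 of 21 of the GENCODE transcript ENSMUST00000153838.7, which is read from the plus strand. It falls at residue 472 of 2537, after 18.6% of the coding sequence. The site is printed 5′ to 3′ on the strand of the guide, first with the PAM, the motif next to the target that Cas9 requires, in capitals, and then with the target in capitals between 30 bases of flank.
Setd2 target and PAM: aatgggctgaggtacgccgtGGG
Setd2 target in context: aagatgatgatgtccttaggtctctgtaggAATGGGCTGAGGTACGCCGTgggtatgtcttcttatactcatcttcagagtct
Small insertions and deletions at such a site can end the reading frame without removing the transcript. Gene counts therefore check the labels only in part, and no file used here gives the reads over this site.

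The promoter of Setd2 lies outside the targeted exon. It is shown because transcription from it can go on after cutting. The 250 bases before the RefSeq start of the gene, at chr9:110532347-110532596 on the plus strand of the RefSeq assembly of GRCm38, are printed with each GC box (GGGCGG, searched on both strands, overlapping matches counted) in capitals.
Setd2 promoter: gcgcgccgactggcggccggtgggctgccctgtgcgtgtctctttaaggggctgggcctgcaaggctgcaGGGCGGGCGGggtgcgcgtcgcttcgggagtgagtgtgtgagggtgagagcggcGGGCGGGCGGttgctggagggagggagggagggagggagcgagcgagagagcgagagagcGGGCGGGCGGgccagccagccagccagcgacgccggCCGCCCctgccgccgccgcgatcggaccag
This stretch held 31 CpG dinucleotides, against a median of 6 over 32851 RefSeq promoters, and 7 GC boxes. At least 1 GC box was found in 32.7% of those promoters, and these matches are a description of the letters only.

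Setd2 (ENSMUSG00000044791.16, chr9:110532597-110618633) was lower in KPY-Setd2KO tumors. In KPY-Ctrl the lowest tumor measured 41.9 CPM, the median was 53.8 and the highest was 63.6. In KPY-Setd2KO the lowest measured 17.9 CPM, the median was 30.4 and the highest was 47.4. The groups overlapped, since KPY-Setd2KO replicates 2 and 4, at 47.4 and 44.1 CPM, lay above the lowest KPY-Ctrl tumor, while the other 6 lay below it. Means were 53.0 ± 8.51 CPM (SD, n = 6) and 31.7 ± 10.9 CPM (SD, n = 8), and mean log2 CPM differed by -0.81 (exact permutation test of the tumors, two-sided, p = 0.00466). In edgeR's quasi-likelihood test across 16836 genes, the log2 fold change was -0.74 (SE 0.22, 95% confidence interval -1.22 to -0.26), with an unadjusted p of 0.00486 and an adjusted p of 0.175. Setd2 ranked 467 of 16836 genes by p. No gene at all was called at an adjusted p under 0.05 in that test (0% of genes), against 2311 genes (13.7%) at an unadjusted p under 0.05 and 770 genes (4.59%) at an adjusted p under 0.05 in DESeq2.

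**Figure D1:**
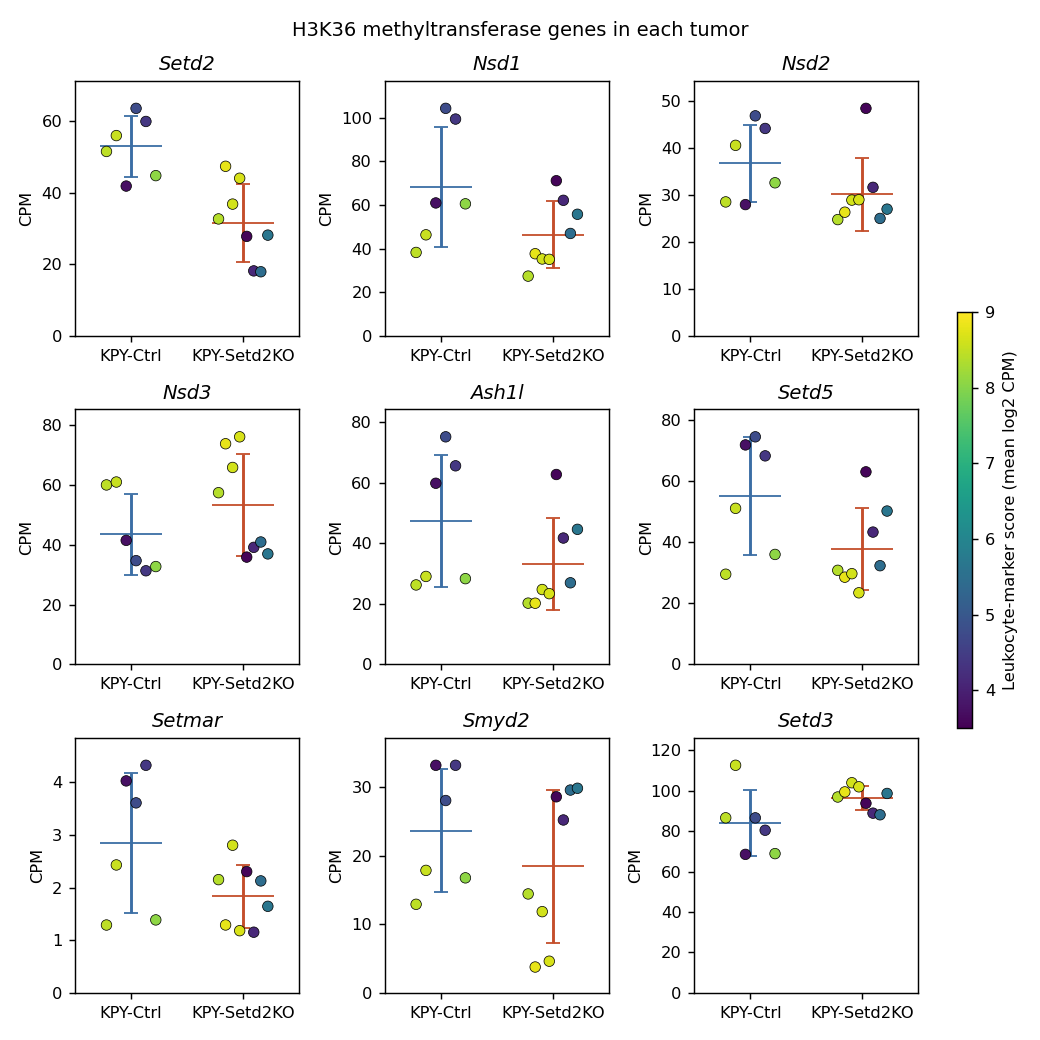
CPM of the 9 H3K36 methyltransferase genes (y axis, starting at 0) in each of the 6 KPY-Ctrl and 8 KPY-Setd2KO tumors, where each point is a tumor colored by its leukocyte-marker score and the bars show the mean and SD. Setd2 has 6 of its 8 KPY-Setd2KO points below the lowest KPY-Ctrl point, while both groups of Ash1l, Setd5, Smyd2 and Nsd3 spread along the color scale.

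Among the NSD family, Nsd1 and Nsd2 had lower means in KPY-Setd2KO and Nsd3 a higher one, and none of the 3 passed the test. Nsd1 (ENSMUSG00000021488.8, chr13:55209782-55318325), whose loss in people causes the overgrowth disorder Sotos syndrome, measured between 38.3 and 104.4 CPM in KPY-Ctrl (median 60.8) and, in KPY-Setd2KO, between 27.4 and 71.2 CPM (median 42.4). Its log2 fold change was -0.56 (SE 0.27, edgeR adjusted p = 0.388), and 4 of the 8 KPY-Setd2KO tumors were below the lowest KPY-Ctrl tumor. Nsd2 (ENSMUSG00000057406.16, chr5:33820725-33897975), the enzyme activated by a translocation in multiple myeloma, measured between 28.0 and 46.9 CPM in KPY-Ctrl (median 36.6) and, in KPY-Setd2KO, between 24.8 and 48.5 CPM (median 28.0). One KPY-Setd2KO tumor, replicate 5, stood at 48.5 CPM, above every other tumor of either genotype, and the other 7 lay between 24.8 and 31.7. The log2 fold change of Nsd2 was -0.29 (SE 0.18, edgeR adjusted p = 0.535), and 60 exon bases overlap Nelfa on the other strand.

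Nsd3 (ENSMUSG00000054823.16, chr8:25601601-25719667), which is amplified together with FGFR1 in squamous lung cancer, was the member with the highest positive estimate. It measured between 31.3 and 60.9 CPM in KPY-Ctrl (median 38.0) and, in KPY-Setd2KO, between 35.8 and 76.0 CPM (median 49.1). KPY-Setd2KO replicates 2, 3 and 4 lay above the highest KPY-Ctrl tumor, and replicates 5 to 8, at 35.8 to 40.9 CPM, lay within the KPY-Ctrl range. The log2 fold change was 0.29 (SE 0.24, edgeR adjusted p = 0.66), and its 95% interval of -0.23 to 0.81 reached from a 0.855-fold to a 1.75-fold level. Scaled by library size alone it was 0.13 (SE 0.18, edgeR adjusted p = 0.793), with an upper end of 0.52 or 1.43-fold. The same replicates 2, 3 and 4 had leukocyte scores of 8.63 to 8.80, the highest of all tumors, and replicates 5 to 8 had scores of 3.57 to 5.66.

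Ash1l and Setd5, large chromatin proteins, had lower means in KPY-Setd2KO without passing the test. Ash1l (ENSMUSG00000028053.13, chr3:88950622-89079375), a Trithorax-group enzyme that counters Polycomb silencing, measured between 26.3 and 75.2 CPM in KPY-Ctrl (median 44.5) and, in KPY-Setd2KO, between 20.2 and 62.7 CPM (median 25.9). Setd5 (ENSMUSG00000034269.12, chr6:113077365-113153435), a gene mutated in intellectual disability, measured between 29.6 and 74.6 CPM in KPY-Ctrl (median 59.8) and, in KPY-Setd2KO, between 23.5 and 63.1 CPM (median 31.6). Both genes were lowest in tumors of each genotype that had high leukocyte scores, and the highest KPY-Setd2KO tumor for both was replicate 5, which had the lowest leukocyte score, 3.57. The log2 fold changes were -0.52 for Ash1l (SE 0.33, edgeR adjusted p = 0.538) and -0.55 for Setd5 (SE 0.27, edgeR adjusted p = 0.386). Ash1l shares 352 exon bases with Dap3 on the other strand, and whether Salmon was run with strand is not given in the sources used here.

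Setmar, Smyd2 and Setd3 were the remaining members. Setmar (ENSMUSG00000034639.7, chr6:108065045-108077122), which encodes a SET-domain protein, was low, with 33 to 231 counts per tumor, 1.29 to 4.32 CPM in KPY-Ctrl (median 3.02) and 1.15 to 2.80 CPM in KPY-Setd2KO (median 1.89). Its log2 fold change of -0.63 (SE 0.35, edgeR adjusted p = 0.454) had the widest interval but for Smyd2, -1.37 to 0.11. Smyd2 (ENSMUSG00000026603.13, chr1:189880492-189922363), which methylates p53 among other proteins, had the widest spread of the members in KPY-Setd2KO. It measured between 12.9 and 33.2 CPM in KPY-Ctrl (median 23.0) and, in KPY-Setd2KO, between 3.77 and 29.8 CPM (median 19.8). KPY-Setd2KO replicates 2 and 4, at 3.77 and 4.62 CPM, were the lowest of all tumors, and they were also the pair with the lowest epithelial scores, 7.46 and 7.78. The log2 fold change of Smyd2 was -0.36 (SE 0.45, edgeR adjusted p = 0.809). It was -0.20 without KPY-Setd2KO replicate 2, -0.21 without replicate 4 and -0.62 with limma voom, and 814 exon bases overlap the antisense gene Gm37422, so part of the count is uncertain.

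Setd3 (ENSMUSG00000056770.15, chr12:108106431-108179314) varied least in KPY-Setd2KO. It measured between 68.5 and 112.6 CPM in KPY-Ctrl (median 83.5) and, in KPY-Setd2KO, between 88.1 and 103.9 CPM (median 97.8), so all KPY-Setd2KO values lay inside the KPY-Ctrl range. Mean log2 CPM was higher by 0.22 (exact permutation test, two-sided, p = 0.048). That p was 0.536, with a difference of 0.076, when tumors were scaled by library size alone, and in 11 of the 14 exact tests that each left out 1 tumor it was above 0.05. In edgeR's test the log2 fold change was 0.20 (SE 0.13, adjusted p = 0.544, 95% interval -0.08 to 0.48).

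Taking the 9 members together, 7 log2 fold changes were negative and 2 positive, with a median of -0.52, against a median of 0.03 over all genes tested and 47.3% of genes below 0. In edgeR's test on genotype alone none of the 9 was called at an adjusted p under 0.05, while DESeq2 on genotype alone called 1, Setd2 (adjusted p = 0.0492). In edgeR 1 of 9, Setd2, had an unadjusted p under 0.05 and was lower, where 6.8% of all genes were lower and 6.93% higher at that threshold. The members do not vary independently of each other, so these counts are a description. For the other 8 genes, the exact permutation p ranged from 0.048 for Setd3 to 0.289 for Smyd2. In none of the 9 did the genotypes separate without overlap, as 0.244% of all genes did with KPY-Setd2KO lower and 0.327% with it higher.

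The question of compensation concerns RNA of the other 8 members above the KPY-Ctrl level. None was called higher in KPY-Setd2KO at an adjusted p under 0.05 by edgeR on genotype alone (0% of genes called higher), by DESeq2 (2.65%), by edgeR with the leukocyte (2.94%) or epithelial score (2.65%) as a covariate, or by DESeq2 with the leukocyte score (7.6%). The upper ends of the 95% intervals on genotype alone in edgeR were 1.01-fold for Setd5, 1.01-fold for Nsd1, 1.07-fold for Nsd2, 1.08-fold for Setmar, 1.14-fold for Ash1l, 1.39-fold for Setd3, 1.53-fold for Smyd2 and 1.75-fold for Nsd3. An increase as large on the log2 scale as the fitted Setd2 decrease lay inside the interval of Nsd3 and of no other member on genotype alone with TMM scaling. These bounds pool tumors of low and high leukocyte score. An edgeR fit with a slope per genotype, chosen after the values had been seen, put Setd2 at -1.36 at a score of 3.73. There Nsd3 was at -0.003 (95% interval -0.52 to 0.51), Setd3 at 0.27 (-0.12 to 0.66) and Smyd2 at 0.10 (-0.89 to 1.10). No other member was called there, while 524 of 16836 genes were called higher. These limits concern RNA, and neither protein nor H3K36 methylation is in the files used here.

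The members' order by level was read per length, as CPM per kilobase of exon. In KPY-Ctrl it ran from Setd3 (13.9) through Smyd2 (8.71), Setd2 (4.93), Nsd1 (3.91), Ash1l (3.19), Setd5 (3.01), Nsd3 (2.63) and Nsd2 (2.19) to Setmar (1.61). In KPY-Setd2KO it ran from Setd3 (15.98) through Smyd2 (6.80), Nsd3 (3.22), Setd2 (2.94), Nsd1 (2.66), Ash1l (2.23), Setd5 (2.06) and Nsd2 (1.80) to Setmar (1.04). Setd3 was thus highest and Setmar lowest by mean in both genotypes, and Setd2 stood ahead of Nsd3 in KPY-Ctrl and behind it in KPY-Setd2KO. Over the 16 neighbouring pairs, within-tumor differences in log2 level were compared with two-sided exact sign-flip permutation tests, and none had an adjusted p under 0.05. The smallest adjusted p was 0.0625, for Setd3 over Smyd2 and Nsd2 over Setmar in KPY-Setd2KO, each with that order in 8 of 8 tumors. Both had the smallest p that 8 tumors allow, 0.00781, and 6 tumors allow none below 0.0312, so a missed threshold here says little about these pairs. The place of Nsd3 before Setd2 in KPY-Setd2KO held in 6 of 8 tumors (exact p = 0.234, adjusted p = 0.375). The order depends on the length used, which is the union of all annotated exons and not the length of the expressed transcripts. It was 2717 bases for Smyd2 and 18347 for Setd5. In CPM, Smyd2 had a mean of 23.7 in KPY-Ctrl, below the 53.0 of Setd2.

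**Figure D2:**
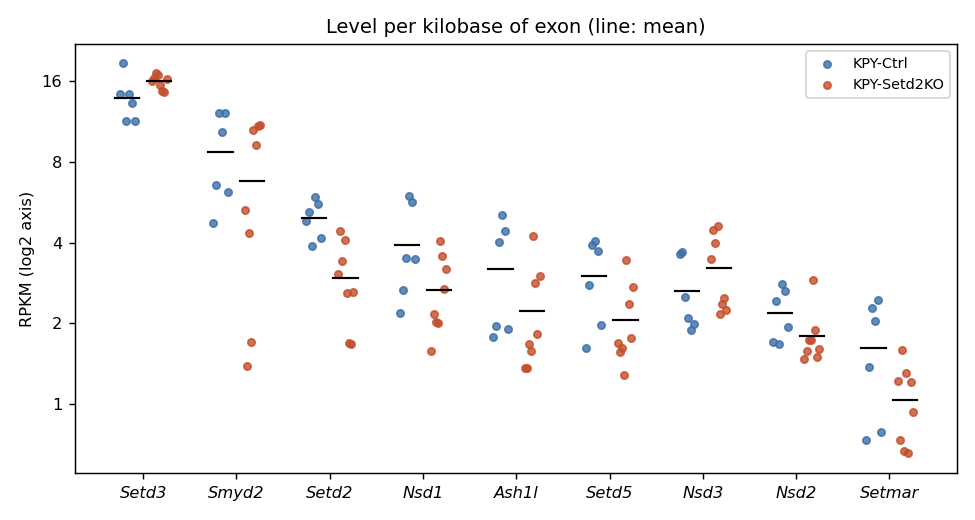
CPM per kilobase of exon (RPKM, log2 axis) of each member in the 6 KPY-Ctrl and 8 KPY-Setd2KO tumors, one point per tumor with the mean as a line, ordered by the KPY-Ctrl mean. Setd3 has the highest mean in both genotypes, at 13.9 and 15.98, and neighbours from Setd2 to Nsd2 overlap.

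Setd2 was also set against the other members within each tumor, which does not depend on the scaling between tumors. Setd2 made up 11.3 ± 1.65% of the summed per-length level of the 9 genes in KPY-Ctrl (SD, n = 6, from 8.59% to 13.5%) and 7.84 ± 3.34% in KPY-Setd2KO (SD, n = 8, from 4.30% to 12.9%). KPY-Setd2KO replicates 1 to 4 measured 8.64% to 12.9%, all within the KPY-Ctrl range, and replicates 5 to 8 measured 4.30% to 6.00%, all below it. Replicates 5 to 8 had the lower leukocyte scores among KPY-Setd2KO. By mean, Setd3 and Smyd2 were the largest parts of the per-length sum in both genotypes. Without division by length, the mean share of Setd2 was 12.9% in KPY-Ctrl and 9.18% in KPY-Setd2KO. Smyd2 measured 1.39 to 5.31 CPM per kilobase in KPY-Setd2KO replicates 1 to 4 and 9.28 to 10.98 in replicates 5 to 8. The share of Setd2 therefore also moves with the other members. In KPY-Ctrl, replicates 3 to 5, with the lower scores, measured 8.59% to 11.2%, and replicates 1, 2 and 6 measured 11.5% to 13.5%.

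Leukocyte-marker RNA was therefore entered as a second term in edgeR's test, so that tumors were compared at equal score. Setd2 was then called lower, with a log2 fold change of -0.84 (SE 0.19, 95% interval -1.24 to -0.43, adjusted p = 0.0275), where 2.21% of all genes were called lower and 5.15% in either direction. DESeq2 on genotype alone gave -0.74 with an adjusted p of 0.0492 (1.94% of genes called lower), and the epithelial score as the second term in edgeR gave -0.89 with an adjusted p of 0.0171 (2.28% called lower). Nsd1 and Setd5 had narrower intervals with the leukocyte term, at -0.49 (SE 0.15, edgeR adjusted p = 0.0696) and -0.48 (SE 0.15, edgeR adjusted p = 0.0669), and Ash1l was at -0.40 (SE 0.14, edgeR adjusted p = 0.107). DESeq2 with the same term called both Nsd1 and Setd5 lower (-0.49 and -0.47, adjusted p = 0.0359 and 0.0309, with 6.33% of genes called lower). Nsd3 moved nearer to 0, to 0.20 (SE 0.15, edgeR adjusted p = 0.449), with an upper bound of 1.43-fold, and Setd3 was at 0.19 (SE 0.11, edgeR adjusted p = 0.306), with an upper bound of 1.34-fold.

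**Figure D3:**
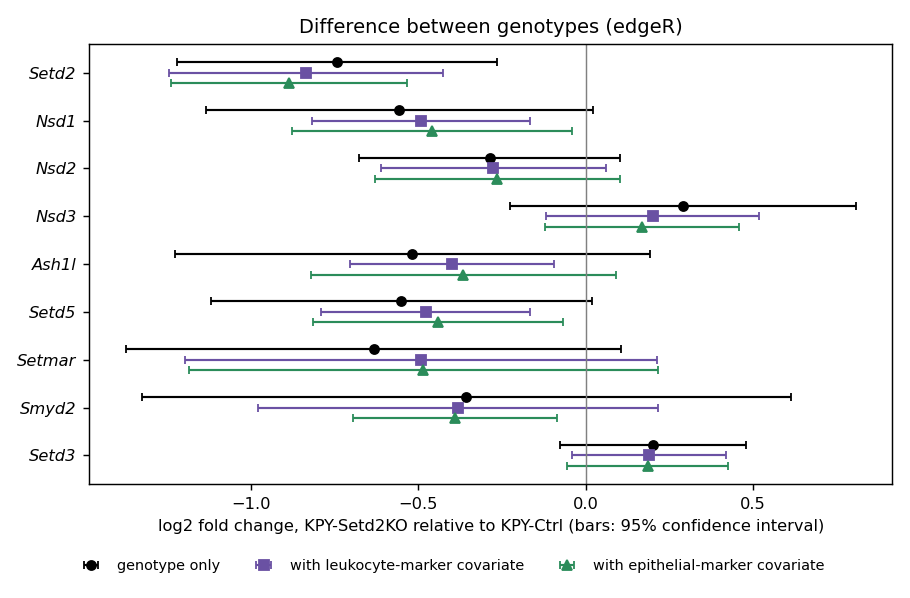
Log2 fold change of each member in KPY-Setd2KO relative to KPY-Ctrl (x axis) with its 95% confidence interval, from edgeR with genotype alone (circles), with the leukocyte-marker score (squares) and with the epithelial-marker score (triangles). Setd2 lies at -0.74, -0.84 and -0.89, and the intervals of Nsd3 and Setd3 include 0 in all 3 fits.

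The members differed in how their RNA moved with leukocyte-marker RNA at equal genotype. Per unit of the score, Ash1l fell by 0.27 on the log2 scale (adjusted p = 1.27e-05), Smyd2 by 0.34 (adjusted p = 0.00103), and Setd5 and Nsd1 each by 0.20 (adjusted p = 0.000252 and 0.000359), all from edgeR's test. Nsd3 rose by 0.17 per unit (edgeR adjusted p = 0.00107). Setd2 (slope 0.10, edgeR adjusted p = 0.0699), Nsd2 (-0.07, 0.112), Setmar (-0.13, 0.19) and Setd3 (0.04, 0.177) did not pass. Falling slopes were called for 28.4% of all genes and rising ones for 28.3%, so 4 and 1 of 9 members are to be read against a common pattern. Ash1l, for example, measured 59.9 to 75.2 CPM in KPY-Ctrl replicates 3 to 5 and 26.3 to 29.1 CPM in replicates 1, 2 and 6, a gap within 1 genotype that is larger than its difference between genotypes.

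Against the epithelial score, the directions were opposite. Smyd2 rose by 0.97 per unit (edgeR adjusted p = 1.22e-06), Ash1l by 0.54 (0.00123), Setd5 by 0.42 (0.00186) and Nsd1 by 0.38 (0.00659). Nsd3 fell by 0.40 (edgeR adjusted p = 0.000358) and Setd2 by 0.31 (0.00824). Rising slopes were called for 29.7% of genes and falling ones for 27.4%. An edgeR fit that allowed each genotype its own slope was chosen after the values had been seen. In it, the slope of Setd2 was 0.02 in KPY-Ctrl (adjusted p = 0.931). The slope was lower by 0.43 in KPY-Setd2KO, a difference that did not pass (edgeR adjusted p = 0.333), as it did for 0 genes in that direction. For Setmar the slope was lower by 0.81 in KPY-Setd2KO, which did not pass either (edgeR adjusted p = 0.355). As the leukocyte and epithelial scores vary over the same 14 tumors, these slopes are not a second set of observations, and the part of cell makeup in them was not tested.

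**Figure D4:**
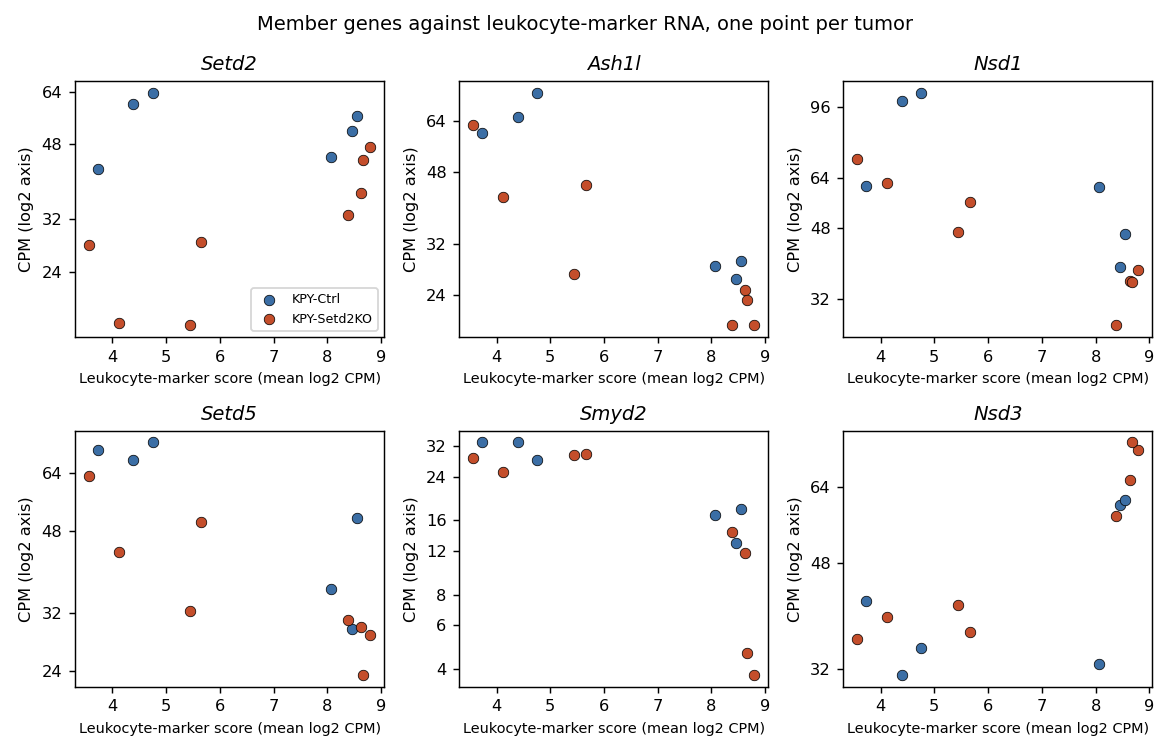
CPM (log2 axis) of 6 members against the leukocyte-marker score (mean log2 CPM of 12 markers, x axis), one point per tumor, colored by genotype. Ash1l, Nsd1, Setd5 and Smyd2 are lower and Nsd3 higher in most tumors with scores of 8.07 or more, and the Setd2 points of the genotypes lie farther apart at scores of 5.66 or less.

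Setd2 RNA in KPY-Setd2KO differed between tumors with their leukocyte score, and this was examined after the values had been seen. KPY-Setd2KO replicates 5 to 8, with scores of 3.57 to 5.66, measured 17.9 to 28.2 CPM, and replicates 1 to 4, with scores of 8.38 to 8.80, measured 32.7 to 47.4 CPM. In KPY-Ctrl the replicates with scores of 3.73 to 4.75 measured 41.9 to 63.6 CPM, and those with scores of 8.07 to 8.55 measured 44.8 to 56.0 CPM. In an edgeR fit that allowed each genotype its own slope, the slope of Setd2 was higher in KPY-Setd2KO by 0.20 per unit (SE 0.078, unadjusted p = 0.0254, adjusted p = 0.343), so the difference in slope did not pass the test, as it did for 0.119% of genes in that direction. The fitted genotype difference in Setd2 was -1.36 (SE 0.27, adjusted p = 0.0127, a 0.39-fold level) at the lowest KPY-Ctrl score, 3.73, where 1.78% of genes were called lower. At the highest KPY-Ctrl score, 8.55, it was -0.42 (SE 0.23, edgeR adjusted p = 0.493, a 0.748-fold level), where 0% of genes were called lower. A lower estimate at the low score was not particular to Setd2. Setmar, at low counts, was at -1.27 at 3.73 (SE 0.48, edgeR adjusted p = 0.133) and 0.13 at 8.55 (SE 0.41). Its slope was higher in KPY-Setd2KO by 0.29 per unit (edgeR adjusted p = 0.46). Smyd2 went the other way, at 0.10 and -0.74 (SE 0.46 and 0.39). The part of leukocyte RNA in these levels was not tested.

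Among the members, Ash1l, Setd5 and Nsd1 varied together most closely within genotype. After each genotype's mean was subtracted, Pearson's r of log2 CPM over the 14 tumors was 0.93 for Ash1l and Setd5, 0.90 for Nsd1 and Ash1l, and 0.81 for Nsd1 and Setd5. Smyd2 had r of 0.63 to 0.75 to the same genes, and Nsd2 had r of 0.61 to 0.69. Nsd3 ran the other way, with r of -0.83 to Nsd1 and -0.83 to Smyd2. Setd2 was nearest to Nsd3 (r = 0.59, with 11.9% of all tested genes higher) and farthest from Smyd2 (r = -0.72, with 95.5% of genes higher). These values are descriptions with no test, and the tumors share the 2 ranges of leukocyte score. By the same measure over all genes tested, those most like Setd2 were Slc38a1, an amino acid transporter (r = 0.94), Galnt10, a glycosyltransferase (0.92), Natd1 (0.92), Etv6, an ETS-family repressor (0.91), and Arhgap24 (0.90). The least like were Psma7, a proteasome subunit (r = -0.92), Pcdhgc4, a protocadherin, Lppos, Abhd11 and Mocs3 (each -0.90).

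Enzymes that remove H3K36 methylation were read beside those that add it. Of 7 listed demethylase genes, 6 passed the filter. In edgeR on genotype alone none was called, and 3 had an unadjusted p under 0.05, all lower, where 6.8% of all genes were. The median log2 fold change of the 6 was -0.25, and -0.41 when tumors were scaled by library size alone, a scaling that lowered the median of all genes by 0.14 on the log2 scale. Kdm4b was at 26.0 ± 9.03 CPM in KPY-Ctrl (SD, n = 6) and 16.7 ± 5.93 CPM in KPY-Setd2KO (SD, n = 8), with a log2 fold change of -0.64 (SE 0.27, edgeR adjusted p = 0.311). With the leukocyte term it was called lower, at -0.56 (SE 0.13, edgeR adjusted p = 0.0295), as were 2.21% of all genes. DESeq2 on genotype alone did not call Kdm4b (adjusted p = 0.206). The others were Kdm2b (-0.64, edgeR adjusted p = 0.33) and Kdm4a (-0.36, edgeR adjusted p = 0.355).

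Among 16 genes for proteins that bind methylated H3K36, none was called in edgeR on genotype alone. At an unadjusted p under 0.05, 2 were higher and 2 lower, where 6.93% of all genes were higher and 6.8% lower. The median was 0.18. With library size alone the median was 0.05 and 0 of the 16 were higher at that threshold. The 3 with the smallest p were Dnmt3b, a de novo DNA methyltransferase (log2 fold change -0.80, edgeR adjusted p = 0.302), Glyr1, a nucleosome-binding protein (-0.44, 0.305), and Hdgf, a PWWP-domain growth factor (0.37, 0.338). Dnmt3b was low, at 1.68 ± 0.445 CPM (SD, n = 6) and 0.96 ± 0.427 CPM (SD, n = 8).

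Of 17 genes for elongation factors that act with RNA polymerase II or Setd2, none was called in edgeR on genotype alone, and 2 were higher at an unadjusted p under 0.05 and none lower, where 6.93% of all genes were higher. The median was 0.13, which became -0.01 when tumors were scaled by library size alone. Paf1, a subunit of the complex that travels with the polymerase, was at 63.4 ± 11.8 CPM in KPY-Ctrl (SD, n = 6) and 97.8 ± 24.0 CPM in KPY-Setd2KO (SD, n = 8). Its log2 fold change was 0.63 (SE 0.18), with an adjusted p of 0.168 from edgeR on genotype alone, 0.0445 with the leukocyte term (2.94% of genes called higher) and 0.0223 from DESeq2 (2.65%). Leo1, of the same complex, was at 0.31 (edgeR adjusted p = 0.363), and Ssrp1, a histone chaperone subunit, at 0.26 (edgeR adjusted p = 0.46).

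Of 25 other lysine methyltransferase genes, none was called in edgeR on genotype alone, and 4 had an unadjusted p under 0.05, all lower, where 6.8% of all genes were. The median was -0.16, and -0.32 with library size alone. Setd4 was at 2.95 ± 0.869 CPM in KPY-Ctrl (SD, n = 6) and 1.72 ± 0.416 CPM in KPY-Setd2KO (SD, n = 8), with a log2 fold change of -0.77 (SE 0.26) and an adjusted p of 0.214 from edgeR and 0.0293 from DESeq2 (1.94% of genes called lower). With the leukocyte term in edgeR, Setd4 was not called (adjusted p = 0.0891). Smyd5 had a log2 fold change of -0.71 (SE 0.27, edgeR adjusted p = 0.26), and was called lower with the leukocyte term, at -0.69 (SE 0.15, edgeR adjusted p = 0.0224, 2.21% of genes called lower). DESeq2 on genotype alone did not call Smyd5 (adjusted p = 0.147). Suv39h1, which methylates H3K9 in heterochromatin, was at -0.33 (SE 0.14, edgeR adjusted p = 0.31).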

How the data were processed

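Sequencing reads of each tumor were quantified by the authors with Salmon 0.8.2 against GRCm38.p5, as their methods and processing notes state, and the authors deposited estimated counts per gene as whole numbers, without normalization. The largest values are written with 3 digits, which concerns 3 genes and no member. How transcripts were summed to genes is not given in the sources used here. Libraries of one genotype differed by far more than counting error, so none was counted as a repeat sequencing of another library. The closest pair was KPY-Ctrl replicates 4 and 5 (Pearson's r of log2 CPM 0.985). Whether they came from 1 tumor or 1 mouse is not given and was not tested. Without replicate 4 or 5, the edgeR log2 fold change of Nsd1 was -0.40 or -0.43.

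Counts were scaled by TMM and tested with edgeR 4.0.16 in R 4.3.3 (filterByExpr, quasi-likelihood test, robust), adjusted by Benjamini-Hochberg over all 16836 genes, and called at an adjusted p under 0.05. DESeq2 1.42.0 and limma 3.58.1 (voom) were alternatives, with other scalings, filters, marker covariates and each tumor left out. Fits were tested on simulated data. Log2 CPM had a prior count of 2. Permutation tests enumerated every split or sign flip with NumPy 2.4.6, and the split test was checked against SciPy 1.17.1. Levels per length used exon unions of GENCODE on GRCm38. Of 52550 gene identifiers, 52403 matched a symbol. RefSeq promoters were found for 5 of 9 members.

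The members, gene lists and tests were chosen with earlier results of these data known. Named genes were the members, the 3 genes with the smallest p in each other list, and the 5 genes most and least like Setd2. Setmar had the fewest counts of the members. One allele shared by all tumors is not reported here.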

Additional observations from a re-analysis of the deposited data

Results flagged for a closer look

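Nsd2 in KPY-Setd2KO replicate 5 stood apart from the other 7 tumors of its genotype, with 5.60 log2 CPM against 4.64 to 4.99. It was the only 1 of 20 groups of values (9 members in each genotype and the Setd2 ratio) in which the highest or lowest tumor lay beyond the 95% limit for its gap to the nearest other tumor. Chance alone sets apart about 1 in 20 such groups. Without this tumor the difference in mean log2 CPM of Nsd2 was -0.39 (exact permutation test, two-sided, p = 0.0122), against -0.29 with it (the same exact test, p = 0.12). In edgeR's test without it, the log2 fold change of Nsd2 was -0.42 (adjusted p = 0.223). Replicate 5 also had the lowest leukocyte score of all tumors, 3.57, and whether the 2 are related was not tested.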

How the results depend on the processing

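The alternative fits, which reuse the same tumors, gave 225 log2 fold changes for the 9 members together. All 225 kept their direction, and 219 stayed on the same side of an adjusted p of 0.05. The 6 that passed it were Setd2 at -0.74 with DESeq2, at -0.84 with the leukocyte covariate, at -0.83 with DESeq2 and that covariate and at -0.89 with the epithelial covariate, and Nsd1 at -0.49 and Setd5 at -0.47 with DESeq2 and the leukocyte covariate. The genes called numbered 0 on genotype alone, 770 with DESeq2, 867 with the leukocyte covariate, 2208 with DESeq2 and that covariate, and 830 with the epithelial covariate. The covariate fits hold less spread between tumors (common dispersion 0.181 and 0.191, against 0.41 on genotype alone). The cause of the difference between tools was not tested. With each tumor left out, 0 to 1 gene was called (1 without KPY-Ctrl replicate 6), Setd2 ranged from -0.85 to -0.66, Smyd2 from -0.49 to -0.20 and Nsd3 from 0.20 to 0.41, and no member was called. Nsd3 was at 0.13 with library size only and at 0.17 with the epithelial covariate, and Setd3 at 0.06 with library size only.

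In the exact permutation tests with each tumor left out, the difference in mean log2 CPM ranged from -0.67 to -0.39 for Nsd1, from -0.39 to -0.21 for Nsd2, from -0.70 to -0.43 for Setd5, from -0.73 to -0.38 for Setmar and from 0.16 to 0.31 for Setd3. In these exact tests, p under 0.05 was reached by Nsd1 and Setd5 without KPY-Ctrl replicate 1 (p = 0.0357 and 0.0295) or KPY-Setd2KO replicate 5 (p = 0.049 and 0.0338), by Nsd2 without KPY-Setd2KO replicate 5 and by Setmar without KPY-Ctrl replicate 1 (p = 0.0458). Setd3 lost it with library size only (difference 0.076) and without any 1 of 11 tumors. The largest p of Setd2 was 0.0124.

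Whether the replicate numbers of the labels pair the tumors is not given in the sources used here. Correlations of same-numbered deviations were 0.52 to 0.66 for numbers 1, 2 and 5, whose tumors lay in the same range of leukocyte score. They were -0.66 to -0.36 for numbers 3, 4 and 6, whose tumors lay in different ranges. Such correlations therefore cannot show or exclude pairing. With the replicate number as a block, Setd2 was at -0.67 (edgeR adjusted p = 0.433), Smyd2 at -0.96 (0.484) and 0 genes were called, and the same 12 tumors without the block gave -0.62 (adjusted p = 0.253) and -0.68 (0.527). The difference in Setd2 slope between genotypes ranged from 0.17 to 0.28 with each tumor left out and passed in none of these fits (smallest adjusted p = 0.121). That fit, and the one without the block, were chosen after seeing the data.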
